A study of Mus musculus with 10 samples.

Results

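The vomeronasal type 1 receptor genes (Vmn1r) were described in maps of H3K4me3, trimethylation of histone H3 at lysine 4, from neurons of the mouse hippocampal area CA1. Members were all autosomal protein-coding genes whose RefSeq symbol in GRCm38.p6, the assembly called mm10, starts with Vmn1r, which gave 231 of 21887 protein-coding genes. Of these, 126 lay on chromosome 7, 51 on chromosome 6, 36 on chromosome 13, 14 on chromosome 17, 2 on chromosome 4 and 1 each on chromosomes 1 and 18. None lay on chromosome 3. Within the genome the members were chosen by symbol, and the family itself was selected on covered length in these peak lists, with results of these data already known. The differences between groups given for it are therefore descriptions and are not used as support.

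The comparison set 4 transgenic libraries carrying CaMKIIδC (labelled CamkdeltaC transgenic), a cytosolic splice variant of CaM kinase II delta, against 4 libraries of littermate controls. All 8 came from nuclei sorted for the neuronal protein NeuN out of dissected CA1, at an age of 3 months and with the label male. The treatment text describes drinking water with vorinostat or vehicle for transgenic mice and vehicle for controls, while no library here carries a drug label. The promoter that drives the transgene and the number of animals behind a library are not given in the labels, so the p-values rest on the spread among these libraries, which may be technical.

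V1R proteins are membrane receptors coupled to G proteins that detect pheromones and other chemical cues in sensory neurons of the apical layer of the vomeronasal epithelium. Each such neuron expresses a single receptor gene or very few and signals through the G protein subunit Gnai2 and the cation channel Trpc2. The coding sequence of these genes lies in a single exon, and the genes stand in tandem arrays. H3K4me3 marks promoters of active or poised genes, and a function of V1R genes in hippocampal neurons is not established.

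The sequences below are promoters of members that the results turn on, from 250 bases before to 50 bases from the annotated start, taken from RefSeq (GRCm38.p6) on the coding strand, 5′ to 3′. Capitals mark every CG dinucleotide and, where the annotated start coincides with it, the ATG. The first 4 belong to members with a peak in all 8 libraries, of chromosomes 7, 6, 7 and 17. The lines are Vmn1r71 at chr7:10749489-10749788 (minus strand), Vmn1r41 at chr6:89740638-89740937 (plus), Vmn1r179 at chr7:23928136-23928435 (plus) and Vmn1r237 at chr17:21313767-21314066 (plus).
Vmn1r71: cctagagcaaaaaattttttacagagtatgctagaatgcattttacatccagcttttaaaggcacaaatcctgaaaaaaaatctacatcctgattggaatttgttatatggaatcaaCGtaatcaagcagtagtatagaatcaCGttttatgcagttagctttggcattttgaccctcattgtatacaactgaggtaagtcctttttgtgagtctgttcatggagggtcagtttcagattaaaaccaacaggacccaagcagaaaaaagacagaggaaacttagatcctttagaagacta
Vmn1r41: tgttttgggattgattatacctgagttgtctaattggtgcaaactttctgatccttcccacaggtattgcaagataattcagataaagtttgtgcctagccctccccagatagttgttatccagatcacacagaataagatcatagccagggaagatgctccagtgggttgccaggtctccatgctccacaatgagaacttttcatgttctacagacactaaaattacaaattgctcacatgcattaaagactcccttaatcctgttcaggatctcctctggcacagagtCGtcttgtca
Vmn1r179: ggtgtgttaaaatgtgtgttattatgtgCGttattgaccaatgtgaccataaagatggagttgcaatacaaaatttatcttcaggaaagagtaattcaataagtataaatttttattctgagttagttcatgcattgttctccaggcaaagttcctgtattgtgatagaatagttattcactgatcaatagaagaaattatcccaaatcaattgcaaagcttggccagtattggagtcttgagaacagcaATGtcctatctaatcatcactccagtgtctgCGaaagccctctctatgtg
Vmn1r237: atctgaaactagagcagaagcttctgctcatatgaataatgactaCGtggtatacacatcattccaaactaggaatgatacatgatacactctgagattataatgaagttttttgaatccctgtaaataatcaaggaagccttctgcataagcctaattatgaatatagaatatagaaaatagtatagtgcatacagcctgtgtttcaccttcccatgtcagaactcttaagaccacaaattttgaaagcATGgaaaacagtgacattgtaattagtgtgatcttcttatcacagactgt

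The other 3 sequences belong to members with a peak in 1 library or in none. Vmn1r196 at chr13:22292943-22293242 (plus) had a peak in 1 control library, and Vmn1r101 at chr7:20442544-20442843 (minus) and Vmn1r149 at chr7:22438180-22438479 (minus) had none. The last pair is shown because both promoters are the same over all 300 positions, with 0 differing.
Vmn1r196: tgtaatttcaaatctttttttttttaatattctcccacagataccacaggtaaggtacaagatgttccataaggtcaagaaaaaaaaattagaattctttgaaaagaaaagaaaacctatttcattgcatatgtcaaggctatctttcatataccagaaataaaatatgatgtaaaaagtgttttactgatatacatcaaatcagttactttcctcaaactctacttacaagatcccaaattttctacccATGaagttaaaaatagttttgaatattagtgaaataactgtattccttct
Vmn1r101: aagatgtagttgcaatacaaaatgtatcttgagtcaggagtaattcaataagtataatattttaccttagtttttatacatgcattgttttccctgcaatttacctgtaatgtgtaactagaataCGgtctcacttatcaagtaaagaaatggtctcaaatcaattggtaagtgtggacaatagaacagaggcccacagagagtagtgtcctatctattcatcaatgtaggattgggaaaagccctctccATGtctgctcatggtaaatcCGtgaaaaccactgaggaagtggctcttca
Vmn1r149: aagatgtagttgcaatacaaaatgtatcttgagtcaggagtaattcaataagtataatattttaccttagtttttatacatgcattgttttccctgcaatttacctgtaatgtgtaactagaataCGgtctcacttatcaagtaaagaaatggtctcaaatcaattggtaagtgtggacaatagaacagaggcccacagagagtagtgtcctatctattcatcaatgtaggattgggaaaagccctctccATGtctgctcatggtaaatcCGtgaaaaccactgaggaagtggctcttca

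These sequences hold 2, 1, 2 and 1 CG dinucleotides in the covered members, 0 in Vmn1r196, and 2 in each of Vmn1r101 and Vmn1r149. Of the 231 members, 206 were matched by gene identifier to 1 promoter in the RefSeq table. Their median GC content was 36.0%, against 52.3% over all 22862 promoters of genes with 1 entry in the table. They held a median of 1 CG dinucleotide, against 7 over all promoters, and 44 members (21.4%) held none, against 6.23% of all promoters. The annotated start coincided with an ATG in 181 members (87.9%) and in 7.76% of all promoters, so for most members the shown window ends inside the coding sequence. Promoters of vomeronasal type 2 receptor (Vmn2r) and olfactory receptor (Olfr) genes were alike. Their median GC content was 38.0% and 35.0%, with a median of 1 CG dinucleotide in each family. An ATG stood at the annotated start in 87.1% of Vmn2r and 73.0% of Olfr promoters.

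A few short words were searched on both strands of each promoter. The letters TATAAA, the core of a TATA box, were present in 87 members (42.2%) and in 14.8% of all promoters. They were present in 23.3% of Vmn2r and 41.0% of Olfr promoters. Of the 87 members, 37 lie in the run Vmn1r91 to Vmn1r166, whose promoters are much alike. TAATTA, a homeodomain core, was present in 15 members (7.28%) and in 5.45% of all promoters. Both like families held it more often, at 17.2% of Vmn2r and 18.5% of Olfr promoters. The palindromic core bound by Ebf factors, which act in olfactory neurons, was present in 0 members and in 0.884% of all promoters. It was present in 0% of Vmn2r and 0.532% of Olfr promoters. Such matches describe letters only.

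The libraries differed before any comparison of the members. Autosomal peaks covered 43.6 to 46.7 Mb in transgenic and 36.2 to 41.6 Mb in control libraries. Read numbers are not known. Transgenic replicate 1 held 102285 peaks, against 60388 to 66560 in the other transgenic and 51903 to 66811 in the control libraries. Transgenic replicates 1 and 4 and control replicates 2 and 3 held 13023 to 31362 peaks on chromosome X, and the other 4 held 1145 to 1293, although all carry the label male. On chromosome Y, transgenic replicate 3 and control replicates 1 and 4 held 1024 to 1220 peaks and the other 5 held 4 to 15, so transgenic replicate 2 had few peaks on both. Of the marker genes, all 8 of neurons and 6 of 7 of CA1 pyramidal cells had a peak in all 8 libraries, against 3 of 7 of astrocytes, 2 of 7 of oligodendrocytes, 0 of 7 of microglia and 2 of 6 of endothelium. Of 10 markers of vomeronasal and olfactory sensory neurons, many of which other neurons also use, 6 had a peak in all 8, and the defining Omp and Trpc2, and Stoml3, had none in any library.

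Coverage of a member was the length in bp overlapped by peaks in a window of 2 kb to each side of the gene end, taken as the end with the higher mean over the 8 libraries. By this measure most of the family was unmarked, and a minority was marked in every library. A peak in all 8 libraries was found at 43 members (18.6%), in 1 to 7 libraries at 53 (22.9%), and in none at 135 (58.4%). Over all protein-coding genes the shares were 61.9%, 11.6% and 26.5%. The vomeronasal type 2 receptor genes (Vmn2r) had a peak in all 8 libraries at 28 of 123 (22.8%) and in none at 34.1%, and the olfactory receptor genes (Olfr) at 75 of 1104 (6.79%) and in none at 60.0%.

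The marked members were gathered in particular arrays. Arrays are runs of members whose starts lie at most 1 Mb apart, and the long run on chromosome 7 was divided before Vmn1r167 after the values were seen. Among them, 6 arrays, namely Vmn1r55 to Vmn1r65, Vmn1r66 to Vmn1r89, Vmn1r90 alone, Vmn1r167 to Vmn1r183 and Vmn1r184 to Vmn1r185 on chromosome 7 and Vmn1r224 to Vmn1r237 on chromosome 17, held 68 members, of which 67 had a peak in at least 1 library and 40 in all 8. The remaining 163 members held 3 with a peak in all 8 (Vmn1r2, Vmn1r4 and Vmn1r41) and 134 with none. These 6 arrays were picked by their coverage, so the contrast with the remaining members follows from that choice. Outside them, 12 of 15 members of Vmn1r40 to Vmn1r54 and 2 of 2 of Vmn1r2 to Vmn1r3 also had a peak in at least 1 library. The plot of each gene in genome order shows where the covered members stand.

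**Figure D1:**
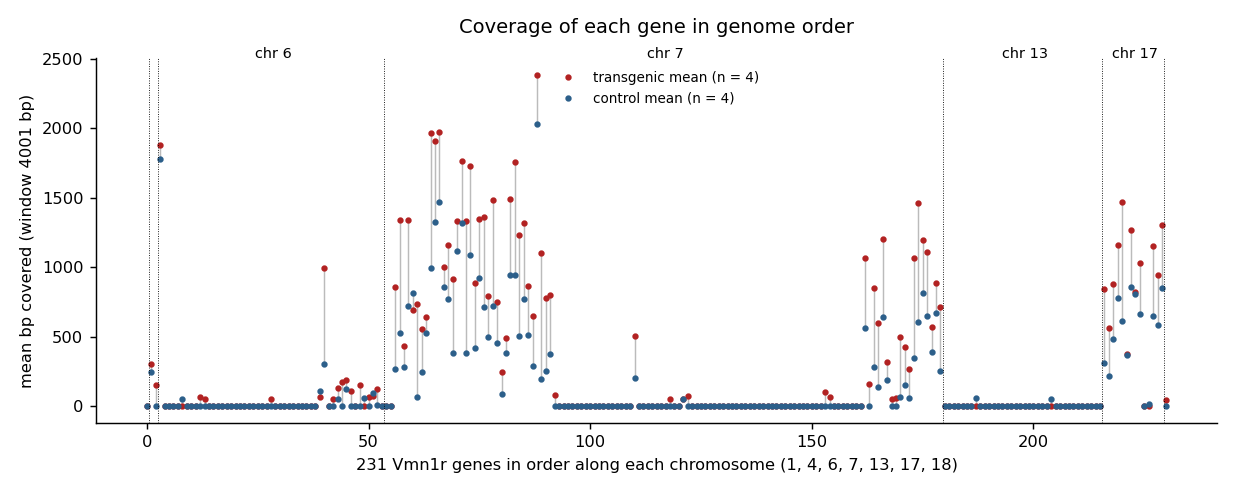
Mean length covered by H3K4me3 peaks, in bp of a 4001 bp window, for each of the 231 Vmn1r genes in order along chromosomes 1, 4, 6, 7, 13, 17 and 18 (dotted lines part the chromosomes, and the first, second and last spaces are chromosomes 1, 4 and 18), in 4 transgenic (red) and 4 control (blue) libraries, with a grey line joining both means of a gene. Covered genes stand in blocks on chromosomes 7 and 17. Outside 6 arrays picked by their coverage, 134 of 163 genes have no peak in any library.

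The array Vmn1r66 to Vmn1r89 (chr7:10273828-13220289) was marked most often, with a peak in all 8 libraries at 17 of its 24 members. Its members averaged 1908, 857, 818 and 1112 bp in transgenic replicates 1 to 4, against 620, 626, 782 and 735 bp in control replicates 1 to 4. All 4 transgenic means stood above all 4 control means, by a ratio of 1.70. It contains the V1rg and V1rj genes by their older names, including Vmn1r85 and Vmn1r89, the receptors V1rj3 and V1rj2 known in mice to respond to sulfated steroids.

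The array Vmn1r55 to Vmn1r65 (chr7:5146490-6011010) had a peak in all 8 libraries at 6 of 11 members. Its means were 1679, 938, 921 and 984 bp in transgenic replicates, against 508, 656, 738 and 730 bp in control replicates, again without overlap. In Vmn1r167 to Vmn1r183 (chr7:23504642-24055691), 7 of 16 members had a peak in all 8, with means of 1054, 508, 560 and 605 bp in transgenic and 288, 291, 239 and 404 bp in control replicates. On chromosome 17, Vmn1r224 to Vmn1r237 (chr17:20419163-21314886) had 9 of 14 in all 8, with means of 1377, 690, 651 and 659 bp in transgenic and 392, 614, 547 and 503 bp in control replicates. In each of these arrays transgenic replicate 1 was the highest library and the groups did not overlap.

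**Figure D2:**
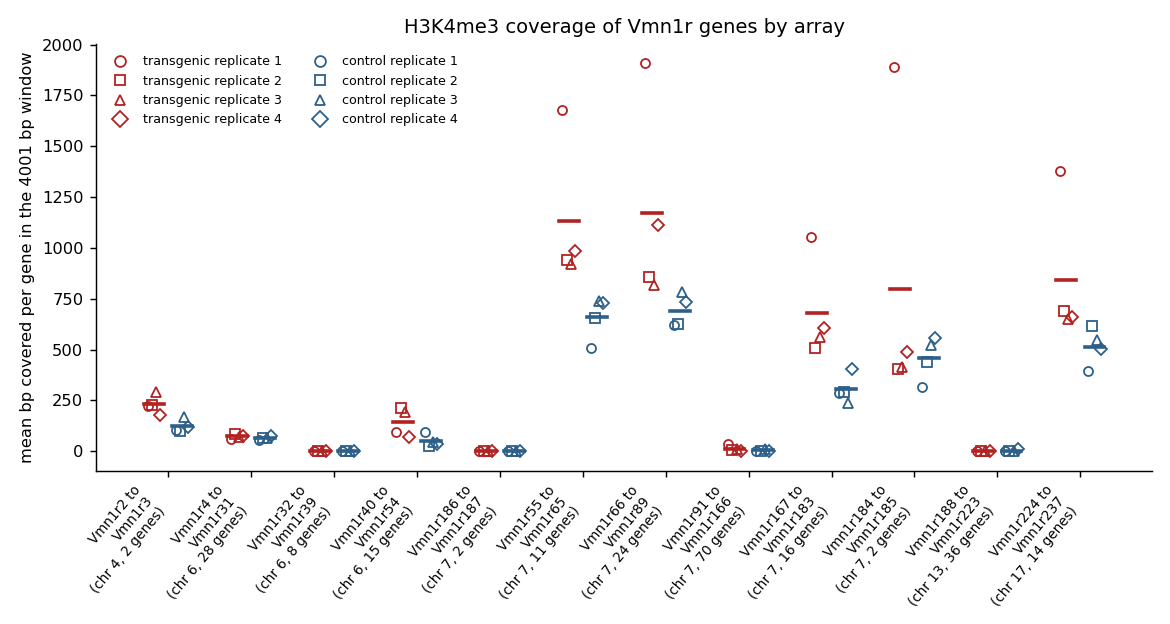
Mean length covered by peaks per gene, in bp of a 4001 bp window, for each array of 2 or more Vmn1r genes, with one symbol per library and a line at the mean of 4 transgenic (red, left) or 4 control (blue, right) libraries. In 4 arrays of chromosomes 7 and 17 every transgenic symbol lies above every control symbol, and 4 arrays on chromosomes 6, 7 and 13 lie at or near 0 in all libraries.

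The largest array was almost unmarked. Of 70 members in Vmn1r91 to Vmn1r166 (chr7:20101158-23251682), 7 had a peak in any library and 0 in all 8, and their mean coverage was 13.3 ± 14.3 bp in transgenic libraries, against 3.63 ± 5.94 bp in controls (mean ± SD, n = 4 each). Without transgenic replicate 1 (34.3 bp) the transgenic mean was 6.25 bp, and without control replicate 3 (12.4 bp) the control mean was 0.705 bp. On chromosome 13, 2 of the 36 members of Vmn1r188 to Vmn1r223 (chr13:22087878-23250323) had a peak, Vmn1r196 with 250 bp and Vmn1r212 with 200 bp, both in control replicate 4 alone. On chromosome 6, Vmn1r32 to Vmn1r39 had no peak at any of 8 members, Vmn1r4 to Vmn1r31 had one at 5 of 28, and Vmn1r40 to Vmn1r54 at 12 of 15, with 1 of the 15 in all 8.

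Older subfamily names in the RefSeq table, present without ambiguity for 126 members, followed a like division. A peak in all 8 libraries was found at 11 of 19 V1rd, 10 of 13 V1re, 3 of 5 V1rf and 9 of 11 V1rg genes, and at the single V1rk gene. It was found at 0 of 21 V1rh and 0 of 9 V1ri genes, 19 and 9 of which had no peak in any library, at 1 of 31 V1rc, 0 of 8 V1ra and 0 of 6 V1rb genes. Subfamily and array coincide for most of these genes and cannot be told apart.

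Neighbouring pseudogenes of the family followed the arrays. Of 141 autosomal pseudogenes of the family, 139 of them named Vmn1r-ps with a number, 28 (19.9%) had a peak in all 8 libraries and 75 (53.2%) in none. Vmn1r-ps103, annotated as protein-coding, is among the 231 members and had no peak. Within Vmn1r66 to Vmn1r89, 15 of 23 pseudogenes had a peak in all 8 and 0 had none, while 34 of 39 among Vmn1r188 to Vmn1r223 and 10 of 11 among Vmn1r91 to Vmn1r166 had none. Over all 141, mean coverage was 376 ± 132 bp in transgenic libraries, against 206 ± 24.2 bp in controls (mean ± SD, n = 4 each), a ratio of 1.83, and of 1.51 without transgenic replicate 1.

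Repeated sequence moved with the lack of peaks in part of the family. For each promoter the share of its 50-base words, the read length, that recur in another promoter of the table was counted on either strand. It averaged 1.58% over 37 members with a peak in all 8 libraries and 51.5% over 123 members with none, against 9.27% over all promoters. In Vmn1r91 to Vmn1r166 the median was 100% over 68 members, as for Vmn1r101 and Vmn1r149 above. The arrays Vmn1r188 to Vmn1r223 (mean 6.98%, 33 members) and Vmn1r4 to Vmn1r31 (1.23%, 24 members) also lacked peaks but held little repeated sequence. In marked arrays the mean was 0% in Vmn1r66 to Vmn1r89 and in Vmn1r224 to Vmn1r237. It was 7.70% in Vmn1r55 to Vmn1r65 (9 members) and 18.9% in Vmn1r167 to Vmn1r183 (15 members), which are also marked. How the authors treated reads that match several places is not given in the sources used here, and the part of repeated sequence in the result was not tested.

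**Figure D3:**
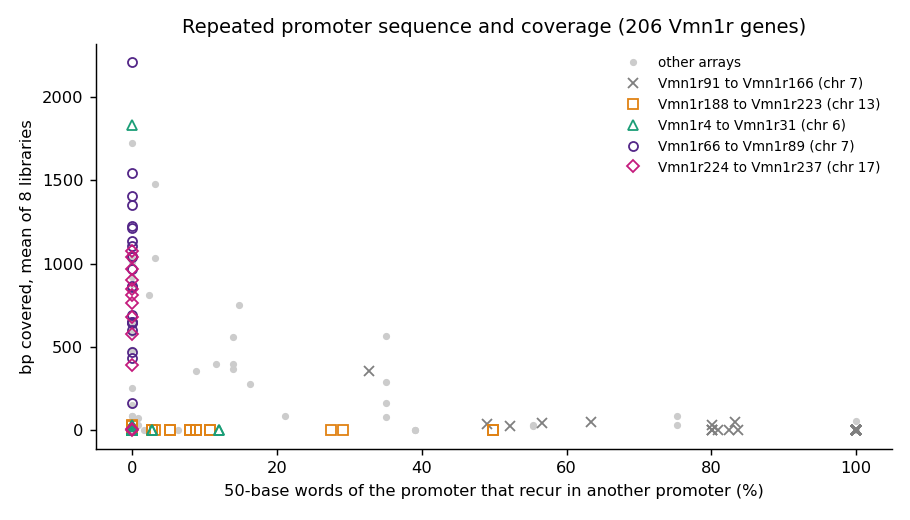
Share of 50-base words of a promoter that recur in another promoter of the RefSeq table (%, horizontal axis) and mean coverage over 8 libraries in bp of a 4001 bp window (vertical axis), one symbol per Vmn1r gene with a promoter entry (206 genes), by array. Most genes of Vmn1r91 to Vmn1r166 lie at high shares and near 0 bp, apart from Vmn1r113 (32.7%, 354 bp) and Vmn1r148 (0%, 0 bp), while genes of Vmn1r188 to Vmn1r223 lie near 0 bp mostly at low shares.

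Where members were marked, the coverage was not centred on the annotated start. For 37 members with a peak in all 8 libraries and 1 annotated start, the share of length covered in bins of 500 bp over 10 kb to each side ranged between 12.4% and 35.2% in transgenic and between 6.16% and 24.3% in control libraries. The lowest bins of both groups lay within 1 kb before the annotated start. That start coincided with an ATG in 23 of the 37 members (62.2%), against 11.1% of all protein-coding promoters. For those members the profile was centred on the ATG, and where transcription starts was not measured. Other protein-coding genes with a peak in all 8 libraries had 84.2% in transgenic and 85.3% in control libraries in the bin after the start, and as little as 2.81% in transgenic and 2.51% in control libraries in the outer bins. The better covered end was the start in 13 of the 37 members and the other end in 24. Length of an array outside the members' windows was also covered, with 26.8% inside and 21.6% outside in transgenic and 15.6% inside and 13.7% outside in control libraries for Vmn1r66 to Vmn1r89. In Vmn1r167 to Vmn1r183 it was 16.0% inside and 25.5% outside in transgenic and 6.69% inside and 15.1% outside in control libraries.

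**Figure D4:**
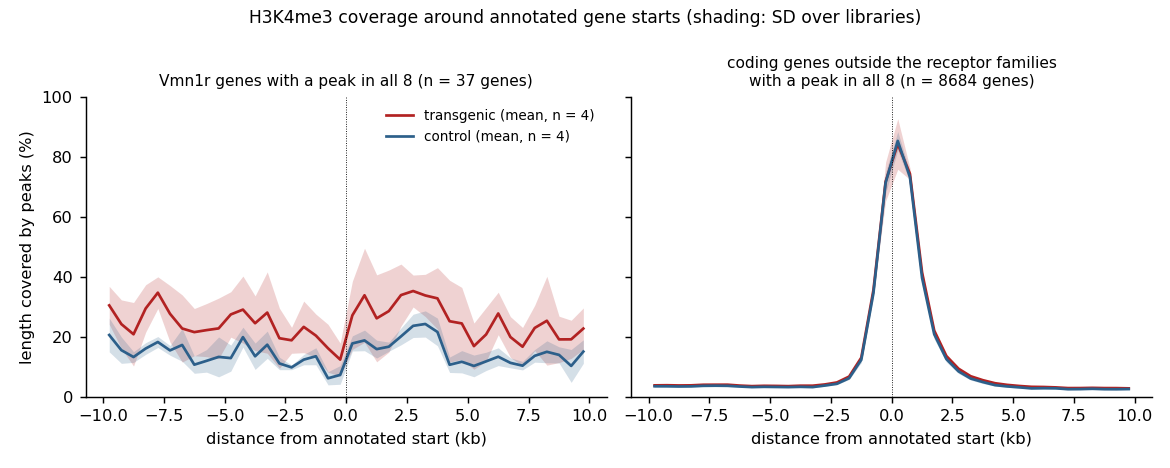
Share of length covered by peaks (%) in bins of 500 bp, by distance from the annotated start in kb (positive in the direction of transcription), for 37 Vmn1r genes and for other coding genes outside the receptor families, all with a peak in all 8 libraries. Lines are means of 4 transgenic (red) and 4 control (blue) libraries with SD shading. The receptor genes show no summit at the annotated start, where the other genes reach 84.2% and 85.3%. In 23 of the 37 receptor genes that start coincides with an ATG.

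The peaks at members had lower fold enrichment and were shorter than those at protein-coding genes as a whole, and were nearer to the average peak of each list. Their median fold enrichment, the authors' own value for a peak, was 4.90 ± 0.0826 in transgenic and 4.92 ± 0.242 in control libraries, against 24.3 ± 7.32 in transgenic and 24.2 ± 4.39 in control libraries for peaks at all protein-coding genes (mean ± SD, n = 4 each). Over all peaks of a list the median fold was 5.44 ± 0.323 in transgenic and 5.62 ± 0.611 in control libraries, and at Vmn2r genes 4.91 ± 0.291 in transgenic and 4.91 ± 0.243 in control libraries. The median width at members was 348 ± 42.0 bp in transgenic libraries, against 295 ± 16.1 bp in controls. Over all peaks it was 386 ± 25.3 bp in transgenic libraries, against 376.5 ± 28.3 bp in controls, and at all protein-coding genes 1085 ± 275 bp in transgenic libraries, against 1062 ± 181 bp in controls. Of the peaks at members, 61.6% in transgenic and 54.9% in control libraries reached a −log10 q-value of 5, against 90.1% in transgenic and 89.0% in control libraries of those at all protein-coding genes.

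Across all members, more genes were marked, and more widely, in transgenic libraries. A peak was present at 79, 77, 71 and 65 members in transgenic replicates 1 to 4, against 56, 62, 64 and 64 in control replicates 1 to 4, and the groups did not overlap. Mean coverage over the 231 members was 485, 244, 240 and 266 bp in transgenic replicates, against 151, 168, 191 and 189 bp in control replicates. These groups did not overlap either, with transgenic replicate 1 far above the rest. Over all protein-coding genes the same library had the lowest mean coverage, at 1038 bp. It was 1131 to 1183 bp in the other transgenic and 1048.5 to 1168 bp in control libraries. Median fold enrichment of peaks at those genes was 14.2 in transgenic replicate 1. It was 25.2 to 31.7 in the other transgenic and 20.5 to 30.5 in control libraries. The part of these differences in its excess at the members was not tested. The members' averages were 309 ± 118 bp over transgenic and 175 ± 18.9 bp over control libraries (mean ± SD, n = 4 each). Their ratio was 1.77, and 1.43 without transgenic replicate 1.

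The same ratio was 1.03 over all protein-coding genes (1126 ± 61.9 bp in transgenic libraries, against 1097 ± 50.4 bp in controls), 1.81 over Vmn2r and 2.03 over Olfr genes. Total autosomal coverage also differed, by a ratio of 1.16, and its part in the members' difference was not tested. Within the 4 libraries with many X peaks the members' mean differed by 197 bp, and within the 4 with few by 71.4 bp. With equal numbers of top-ranked peaks per library the difference in mean coverage was 77.5 bp, beside 134 bp with all peaks.

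By chromosome, the members' mean coverage was 435 ± 184 bp in transgenic libraries, against 240 ± 29.6 bp in controls on chromosome 7, and 844 ± 356 bp in transgenic libraries, against 514 ± 93.3 bp in controls, on chromosome 17 (mean ± SD, n = 4 each). On chromosome 6 it was 82.0 ± 24.3 bp in transgenic libraries, against 50.6 ± 6.23 bp in controls, much of it from Vmn1r4, whose window is shared with the gene Nt5c3. Without Vmn1r4 it was 46.0 ± 23.4 bp in transgenic libraries, against 16.0 ± 8.92 bp in controls. On chromosome 4, with 2 members, it was 231 ± 46.8 bp in transgenic libraries, against 123 ± 30.9 bp in controls. On chromosome 13 it was 0 bp in every transgenic library and 3.13 ± 6.25 bp in control libraries, from 1 library. Without transgenic replicate 1 the difference fell to 104 bp on chromosome 7, beside 195 bp with it, and to 152 bp on chromosome 17, beside 330 bp.

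No member passed the test. A peak in at least 4 of 8 libraries was required, which 68 members (29.4%) and 14753 of all protein-coding windows (67.4%) had. Each of the 68 had a peak in at least 1 library of both groups. A peak in all 4 libraries of 1 group was enough to meet the requirement, as in the transgenic libraries at Vmn1r60. With limma and Benjamini-Hochberg adjustment at 0.05 over all 14753 windows, 0 members were called, against a background of 0% (0 of 14753). At an unadjusted limma p under 0.05, 19 members were higher in transgenic libraries and 0 lower, against 2.8% and 1.32% of all windows tested. The log2 difference in covered length was above 0 at 64 of the 68 members and below 0 at 4, against 46.4% above 0 over all windows. The like families shared this shift. The difference was above 0 at 56 and below at 4 of 60 tested Vmn2r genes, and above at 210 and below at 27 of 237 tested Olfr genes. At that unadjusted limma p, 11 Vmn2r and 67 Olfr genes were higher and 0 lower.

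The median log2 difference was 0.66 over the 68 members, with quartiles of 0.43 and 1.06, and -0.01 over all windows. Over tested Vmn2r and Olfr genes it was 0.85 and 0.84. At the members it was 0.90 within the libraries with many X peaks and 0.30 within those with few, and 0.36 without transgenic replicate 1. All 4 transgenic values stood above all 4 control values at 9 members (13.2%), against 1.86% of all windows, and below at 0 members, against 0.481%. They stood above at 8.33% of tested Vmn2r and 11.0% of tested Olfr genes, and below at 0. More transgenic than control libraries had a peak at 39 of the 231 members, against 5.87% of all protein-coding genes. Fewer did at 9 members, against 3.29% of all protein-coding genes. More did at 38 and fewer at 10 of 123 Vmn2r genes, and more at 262 and fewer at 53 of 1104 Olfr genes. The median half-width of the 95% confidence interval was 1.02 on the log2 scale at members and 0.198 over all windows, so the measurement was far less precise at members.

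The smallest p on the higher side belonged to Vmn1r71 (chr7:10747502-10749538), a V1re gene whose promoter is shown above. It had 1899, 1079, 916 and 1433 bp covered in transgenic replicates 1 to 4, against 205, 494, 437 and 404 bp in control replicates. The groups did not overlap, and the log2 difference was 1.54 ± 0.28 (SE, limma adjusted p = 0.344). That window stood at the 3′ end of the gene, not at the promoter shown, and also held an end of Gm5130. At the annotated start, 2.04 kb away, the values were 1360, 860, 793 and 906 bp in transgenic and 205, 956, 553 and 0 bp in control replicates. The groups overlapped there.

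Vmn1r60 had 1308, 576, 666 and 383 bp in transgenic replicates, against 0, 0, 0 and 265 bp in control replicates. All transgenic values stood above the 1 control library with a peak, at a fitted log2 difference of 2.46 ± 0.57 (± SE; limma adjusted p = 0.642). Vmn1r41, the most covered member of chromosome 6 after Vmn1r4 (chr6:89740888-89747414), had 973, 651, 1400 and 949 bp in transgenic replicates, against 462, 148, 405 and 200 bp in control replicates. Its groups did not overlap, with a difference of 1.46 ± 0.34 (SE, limma adjusted p = 0.642).

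Vmn1r63, known as V1rd1, had 2688, 1364, 1580 and 2241 bp in transgenic replicates, against 990, 881, 1084 and 1013 bp in control replicates. The groups were apart, with a difference of 0.86 ± 0.20 (SE, limma adjusted p = 0.650). That window stood at the 5′ end of the gene and also held an end of the pseudogene Vmn1r-ps44. The start annotated for its promoter lay 20.8 kb inside the gene. At that start the values were 1140, 835, 442 and 0 bp in transgenic and 185, 687, 381 and 668 bp in control replicates, and the groups overlapped. The log2 difference there was -0.12, although mean coverage was higher in transgenic libraries (604 bp, against 480.2 bp in controls), since 1 transgenic library was at 0.

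Vmn1r88 had 1567, 1067, 1120 and 662 bp in transgenic replicates, against 0, 249, 531 and 0 bp in control replicates, without overlap and with a fitted log2 difference of 2.40 ± 0.62 (± SE; limma adjusted p = 0.834). Vmn1r179 had 2182, 849, 1547 and 1269 bp in transgenic replicates, against 602, 495, 413 and 902 bp in control replicates. With control values of 0, the fitted sizes at Vmn1r60 and Vmn1r88 depend on the 100 bp added before the logarithm. At Vmn1r179 transgenic replicate 2 lay below control replicate 4, and the difference was 1.11 ± 0.29 (SE, limma adjusted p = 0.838).

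**Figure D5:**
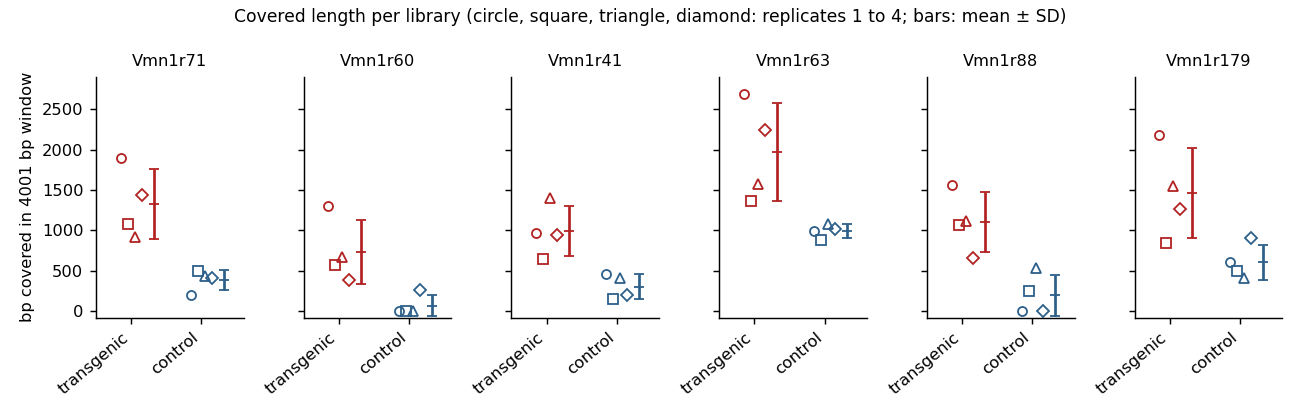
Length covered by peaks in bp of a 4001 bp window at the 6 Vmn1r genes with the smallest limma p on the higher side, one symbol per library, with mean ± SD of 4 transgenic (red, left) and 4 control (blue, right) libraries. The groups are apart at all but Vmn1r179, where 849 bp in a transgenic library lies below 902 bp in a control library.

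The 4 tested members with a negative log2 difference overlapped widely between groups. At Vmn1r59 mean coverage was also lower in transgenic libraries (690 bp, against 815.5 bp in controls), while at Vmn1r184, Vmn1r80 and Vmn1r229 it was higher (886, 489 and 377 bp, against 669, 380.0 and 365 bp in controls), so the sign of these 3 rests on libraries with low or 0 values on the log scale. Vmn1r59 had 1473, 330, 699 and 258 bp in transgenic replicates, against 436, 1532, 920 and 374 bp in control replicates (log2 -0.30 ± 0.55, SE). Vmn1r229 had 827, 412, 0 and 270 bp in transgenic replicates, against 493, 204, 495 and 268 bp in control replicates (-0.31 ± 0.66). The limma adjusted p of all 4 was 1.00. Vmn1r184 had 2137, 233, 200 and 975 bp in transgenic replicates, against 431, 682, 649 and 913 bp in control replicates (-0.12 ± 0.60). Vmn1r80 had 1414, 0, 336 and 206 bp in transgenic replicates, against 544, 555, 421 and 0 bp in control replicates (-0.05 ± 0.91).

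At the most covered members of chromosome 7 the groups overlapped. Vmn1r87, the V1rk gene, had 3596, 2206, 1743 and 1988 bp in transgenic replicates, against 1858, 2562, 2065 and 1641 bp in control replicates (log2 0.16 ± 0.24, SE). Vmn1r65 had 2966, 1510, 1608 and 1813 bp in transgenic replicates, against 1580, 1141, 1574 and 1576 bp in control replicates (0.35 ± 0.22).

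On chromosome 17 the most covered members were the V1rf gene Vmn1r237 and Vmn1r230. Vmn1r237 had 2122, 892, 1159 and 1037 bp in transgenic replicates, against 943, 816, 687 and 964 bp in control replicates (log2 0.47 ± 0.25, SE). Vmn1r230 had 1828, 1285, 888 and 1079 bp in transgenic replicates, against 230, 1288, 951 and 962 bp in control replicates (0.63 ± 0.41). Their groups overlapped.

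The highest member on chromosome 6, Vmn1r4, was covered at its 5′ gene end, which lies beside another gene. The coverage there cannot be assigned to either gene alone. Vmn1r4 had 1682, 1935, 1970 and 1941 bp in transgenic replicates, against 1515, 1779, 1678 and 2150 bp in control replicates (log2 0.06 ± 0.07, SE). Its window also holds the end of Nt5c3, a nucleotidase gene, and Vmn1r4 was the 1 member whose window held an end of another protein-coding gene. At the start annotated for the promoter of Vmn1r4, 32.6 kb inside the gene, coverage was 0 bp in all 8 libraries.

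Members just inside the requirement of 4 libraries were Vmn1r53, Vmn1r175 and Vmn1r177. Vmn1r177 had 452, 257, 355 and 0 bp in transgenic replicates, against 0, 0, 0 and 231 bp in control replicates. Vmn1r175 had 1043, 530, 0 and 418 bp in transgenic replicates, against 0, 252, 0 and 0 bp in control replicates, and Vmn1r53 had 0, 292, 141 and 71 bp in transgenic replicates, against 0, 0, 33 and 0 bp in control replicates. Of the 5 members just outside, with a peak in 3 libraries, Vmn1r3 and Vmn1r168 had peaks in transgenic libraries only, while Vmn1r40, Vmn1r44 and Vmn1r79 had them in both groups, at 156 to 778 bp where present.

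Regions formed from all peaks gave a reading that does not depend on gene ends. Of 72683 regions tested, 2033 had a member as their nearest protein-coding gene. Of these, 2 were called higher in transgenic libraries by limma at an adjusted p of 0.05 and 0 lower (0.0984%), against 0.0482% of all regions in either direction and 0.0454% higher. The log2 difference was above 0 in 1534 of the 2033 and below 0 in 499, against 52.6% above 0 over all regions, and its median was 0.45, against 0.03. Only 101 of the 2033 overlapped the body of a member, and the median distance to it was 11865 bp.

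The called region nearest to Vmn1r72 lay 19161 bp from the gene, at chr7:11689680-11692434, over no annotated gene. It had 2485, 1853, 2296 and 2132 bp covered in transgenic replicates, against 1314, 1315, 967 and 1426 bp in control replicates. The groups did not overlap, and the log2 difference was 0.66 ± 0.12 (SE, limma adjusted p = 0.0355). Vmn1r72 itself had 2359, 1496, 906 and 2139 bp in transgenic replicates, against 813, 1014, 826 and 1700 bp in control replicates, which overlapped (0.57 ± 0.30).

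The other called region, at chr7:14546151-14549843, lay 11399 bp from Vmn1r90, its nearest coding gene, and overlapped the pseudogenes Nlrp5-ps and Obox4-ps3. It had 2911, 1748, 2396 and 2031 bp in transgenic replicates, against 761, 1002, 622 and 853 bp in control replicates (limma adjusted p = 0.00146). At Vmn1r90 the groups overlapped, with 1811, 314, 653 and 428 bp in transgenic and 489, 0, 968 and 53 bp in control replicates (log2 1.24 ± 0.81, SE). The next region, 16805 bp from Vmn1r64 at chr7:5901347-5903220, did not pass, at 0.90 ± 0.18 (SE, limma adjusted p = 0.0568). Neither call remained with equal numbers of top-ranked peaks, and 0 regions near members were called with a peak required in at least 4 libraries.

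Genes of the vomeronasal signalling pathway had log2 differences on both sides of 0. Of 34 such genes, 23 had a peak in all 8 libraries, and 5 had none in any library, among them Trpc2, the transduction channel, Omp, the olfactory marker protein, and Rtp1, a receptor transport protein. Of the 27 tested with limma, 0 were called, 14 had a log2 difference above 0 and 13 below, and the median was 0.01. Gnai2, the G protein subunit of V1R neurons, which other neurons also use, had 2206 ± 102 bp in transgenic libraries, against 2159 ± 183 bp in controls (mean ± SD, n = 4 each; log2 0.01).

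The pathway genes with the smallest p on either side were developmental or chromatin genes. Bcl11b, a transcription factor of vomeronasal neurons, differed by 0.17 and Kdm1a, a histone demethylase needed for olfactory receptor choice, by 0.13 on the log2 scale. Nrp2, an axon guidance receptor, differed by -0.08 and Lhx2, a LIM-homeodomain factor of olfactory neurons, by -0.14. None of these passed the test. The largest log2 difference in the list, named here after its value was seen, was 0.58 at Fpr-rs3, a formyl peptide receptor gene of vomeronasal neurons that lies among Vmn1r224 to Vmn1r237. It had 2811, 1041, 1360 and 807 bp in transgenic replicates, against 1255, 1223, 794 and 426 bp in control replicates, and the groups overlapped (limma adjusted p = 1.00).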

How the data were processed

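H3K4me3 was measured by chromatin immunoprecipitation and sequencing, from 0.2 µg of chromatin and read as single 50-base ends, in 4 transgenic and 4 littermate control libraries grouped by title. The letters in the sample descriptions differ from the letters in the list file names, while group names and replicate numbers match, so lists were taken by their GEO sample. The 2 input samples were not analysed here. The submitters' processing notes name Bowtie2 2.0.2, MACS2, limma, DiffBind, SAMtools 1.3.1, FastQC 0.11.5 and deepTools 3.0.1, and the build mm10. What each did, its settings, and the treatment of reads matching several places are not given in the sources used. The authors deposited 1 peak list per library with a score, a fold enrichment (a ratio), and −log10 values of p-value and q-value for each peak. The score, fold and −log10 values are the authors' own and were used only within a list. Reads were not counted in the lists, so depth is unknown, and a deeper library can give more and wider peaks.

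Peaks were merged within a library. Covered length in the window (4001 bp) was compared as log2(bp + 100), which understates change at thinly covered genes, after centring each library on its median over windows with a peak in all 8. Tests used limma 3.58.1 in R 4.3.3 (trended, robust variance) with Benjamini-Hochberg adjustment at 0.05 over all windows with a peak in at least 4 libraries, or over all union regions present in at least 2 libraries. The fit was tested on simulated data, with changes placed only in windows of below-median spread. That trial therefore gives no measure of power at windows as variable as most members. Tables and figures were made with Python 3.11.15. Members, gene lists and tests were chosen with earlier results of these data known. Named members were the 2 most covered on each of chromosomes 6, 7, 13 and 17 (3 holds none), the 6 and 4 with the smallest p on the higher and lower side, those nearest to called regions and those at the filter's edge. Vmn1r85, Vmn1r89 and the subfamilies were added after values were seen.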

Additional observations from a re-analysis of the deposited data

Results flagged for a closer look

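In groups of 4 libraries, a value was listed here where it stood far from the other 3 by Dixon's criterion at 95%. Of 86 groups examined, 21 were listed, where chance gives about 1 in 20 and where members that are at 0 in 3 libraries are listed by construction.

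Transgenic replicate 1 stood apart in the summaries of the family. Its mean coverage was 485 bp over all members, against 240 to 266 bp in the other transgenic libraries. It was 707 bp on chromosome 7, 1377 bp on chromosome 17 (Vmn1r224 to Vmn1r237), 1679 bp in Vmn1r55 to Vmn1r65 and 1890 bp in Vmn1r184 to Vmn1r185. At Vmn1r4, whose window is shared with Nt5c3, the same library was the lowest of its group, with 1682 bp.

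Among control libraries, replicate 4 gave the whole signal of chromosome 13 and of Vmn1r188 to Vmn1r223, a mean of 12.5 bp, from 250 bp at Vmn1r196 and 200 bp at Vmn1r212. Replicate 3 had the highest mean in Vmn1r91 to Vmn1r166 (12.4 bp), and replicate 2 the lowest value at Vmn1r65 (1141 bp).

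The other listed values belonged to sparsely covered members. They were 265 bp at Vmn1r60, 33 bp at Vmn1r53, 231 bp at Vmn1r177, 252 bp at Vmn1r175, 200 bp at Vmn1r44 and 342 bp at Vmn1r79, each the 1 control library with a peak. They were also 264 bp at Vmn1r40, the 1 transgenic library with a peak, and 0 bp at Vmn1r3, the 1 transgenic library without.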

How the results depend on the processing

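The median log2 difference of tested members (0.66) stayed above 0 under all 23 alternatives tried, between 0.30 and 0.98. No window was called except 5 with ordinary variance. The 35 called regions became 21 with the X-peak class as a term, 10 on autosomes alone, 2 with equal numbers of top-ranked peaks, 118 without centring, 296 with ordinary variance and 0 with a peak required in 4 libraries. The 2 called regions near members became 1, 1, 0, 12, 11 and 0 under these. Leaving out 1 library gave 15 (without transgenic replicate 1) to 54 regions, and 2 to 5 near members.

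Deviations of same-numbered samples had correlations between -0.16 and 0.17, and those of samples with different numbers between -0.38 and 0.30. With 4 libraries per group these values cannot decide whether the numbers pair the samples. With the replicate block, 0 regions were called, 0 near members, and the median remained 0.66.

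The difference in mean coverage of 134 bp was 341 bp with a window of 5 kb, and 75.1 to 157 bp leaving out 1 library. That in members with a peak (11.5) was 6.25 with top-ranked peaks and 17 at a −log10 q of at least 5, and 9.5 to 14.2 leaving out 1 library. By chromosome, the 5 kb window gave 485, 126, 466, 2.15 (reversed) and 880 bp on chromosomes 4, 6, 7, 13 and 17. On chromosome 4 the difference (108 bp) was 25.3 bp with top-ranked peaks, 50.4 bp at the stricter q and 0 with a window of 1 kb, and on chromosome 6 (31.4 bp) 12.7 bp with top-ranked peaks. Leaving out 1 library gave 87.1 to 125 bp on chromosome 4, 22.1 to 38.3 on 6, 104 to 233 on 7, -4.17 to 0 on 13 and 152 to 394 on 17.

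Of 380 values of 20 named members, 350 kept direction and side and 30 reversed, at 9 members. Vmn1r184 had 1.01 within libraries with many X peaks, 0.048 at the stricter q, 0.023 with a pseudocount of 500 bp, 0.38 at 5 kb and -0.72 to 0.30 leaving out 1 library. Vmn1r80 had 0.21, 0.58, 0.022, 0.34 and -0.76 to 0.59 under the same. Vmn1r229 had 0.45 with many X peaks, 0.12 at 1 kb, 0.30 at 5 kb and -0.80 to 0.32 leaving out 1 library. Vmn1r59 had 0.19 with few X peaks, 0.94 at the stricter q, 0.17 at 5 kb and -0.76 to 0.038. With few X peaks Vmn1r65 and Vmn1r72 had -0.049 and -0.048, at 1 kb Vmn1r230 had -0.41 and Vmn1r87 -0.040 (-0.083 to 0.30 leaving out 1 library), and at the annotated start Vmn1r63 had -0.12. The causes were not tested. X-peak settings were chosen after seeing the data.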
